A study of Mus musculus with 9 samples.

Results

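This account concerns the imprinted miRNAs that lie outside the Meg3 region of chromosome 12 and were counted in mouse liver. The members were the rows whose names begin with mmu-miR-675-, mmu-miR-483-, mmu-miR-335-, mmu-miR-296- or mmu-miR-298-, which come from the H19, Igf2, Mest and Gnas loci. There were 6 such rows among the 1140 rows of the table: both arms of miR-335, and a single arm of each of the other miRNAs. Small RNA libraries were made from liver of 9 male C57BL/6 mice, which entered the study at 8 weeks of age, with 3 mice in each group. Control mice received intraperitoneal normal saline for 8 weeks, and TAA mice received intraperitoneal thioacetamide (TAA), a hepatotoxin that causes liver fibrosis, over an equal period. Recovery mice received the same 8-week TAA course and were then left without injections for 8 more weeks, so they were older at death, and recovery and age cannot be told apart. Whole liver was used, and fewer cells of a type and less miRNA per cell cannot be told apart in such samples. The question was whether these miRNAs shared the rise of the miRNAs between Meg3 and Mirg, which was still present in the recovery livers.

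Imprinted genes are expressed mainly from the chromosome inherited from 1 parent. H19 and Meg3 are non-coding genes expressed from the maternal chromosome, and Igf2 and Mest are coding genes expressed from the paternal one. Gnas encodes the stimulatory G protein alpha subunit and lies in a cluster of imprinted transcripts from both strands. H19 and Igf2 are highly expressed in the fetal liver and fall after birth. A miRNA hairpin inside such a gene is cut from the host transcript, and each hairpin can give a 5p and a 3p arm. The seed, bases 2 to 8 of the mature miRNA, directs most of its pairing with target mRNAs.

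The 6 mature sequences are shown because their likeness to other mature sequences bears on whether their reads could be confused. Their seeds and base composition are given as description. The sequences were taken from RefSeq (GRCm38.p6), all 6 were matched by name, and the capitals mark the seed.
mmu-miR-296-3p: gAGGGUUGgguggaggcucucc
mmu-miR-298-5p: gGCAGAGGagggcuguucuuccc
mmu-miR-335-3p: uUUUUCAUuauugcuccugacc
mmu-miR-335-5p: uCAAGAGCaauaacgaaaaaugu
mmu-miR-483-5p: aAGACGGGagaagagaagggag
mmu-miR-675-3p: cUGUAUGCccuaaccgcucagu
The 6 seeds were all different, and 0 other mature miRNAs of the RefSeq table carried any of them. Compared base by base from the 5′ end, the nearest other mature sequence differed from mmu-miR-296-3p at 8 positions and from each of the other members at 9 to 11. The members of the Gnas locus were rich in G and C (68.2% in mmu-miR-296-3p and 65.2% in mmu-miR-298-5p), whereas the arms of miR-335 were poor in them (36.4% in the 3p arm and 30.4% in the 5p arm).

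The hairpins lie at 4 imprinted loci (GRCm38). Mir296 (chromosome 2, 174267047 to 174267125) and Mir298 (chromosome 2, 174267504 to 174267585) are on the minus strand, 378 bases apart, and in GENCODE M21 neither overlaps an annotated host gene. The Mir298 hairpin lies 13651 bases beyond the annotated end of Nespas, the antisense transcript of the cluster, and 16734 bases from the start of Gnas. Mir335 (chromosome 6, 30741299 to 30741396, plus strand) lies in an intron of Mest in all 7 transcripts that span it. Mir675 (chromosome 7, 142577064 to 142577147, minus strand) overlaps an exon in 3 of the 4 H19 transcripts that span it. Mir483 (chromosome 7, 142654924 to 142654996, minus strand) lies in introns of Igf2 and of the overlapping gene Gm49394, 77776 bases from Mir675.

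The levels of the members were low and spanned a wide range. Levels are given as counts per 1000000 counts after scaling by TMM factors over the 9 libraries (CPM, mean ± SD, n = 3), and TPM names the deposited value, which is scaled by the library total alone. Library totals ran from 9071847 to 12983378 counts. The TMM factors were 1.43 to 1.63 in the TAA libraries, against 0.739 to 0.792 in the control and 0.766 to 0.887 in the recovery libraries. Use of library totals in place of TMM therefore shifted the median log2 fold change of all tested miRNAs: by 1.12 for TAA against control, by -0.86 for recovery against TAA, and by 0.18 for recovery against control. In control livers mmu-miR-335-3p was the most abundant member, at 14.7 ± 2.70 CPM, followed by mmu-miR-335-5p at 4.70 ± 1.41 CPM. mmu-miR-296-3p (0.250 ± 0.243 CPM) and mmu-miR-298-5p (0.120 ± 0.133 CPM) were close to the limit of detection and did not differ from each other beyond their spread. mmu-miR-675-3p and mmu-miR-483-5p had 0 counts in all 3 control livers, and a count of 0 allows up to 3 counts, or 0.292 to 0.399 CPM in these libraries. These limits cover counting error only. The order of the more abundant members was the same in the TAA and the recovery group, with mmu-miR-335-3p above mmu-miR-335-5p in every library.

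**Figure D1:**
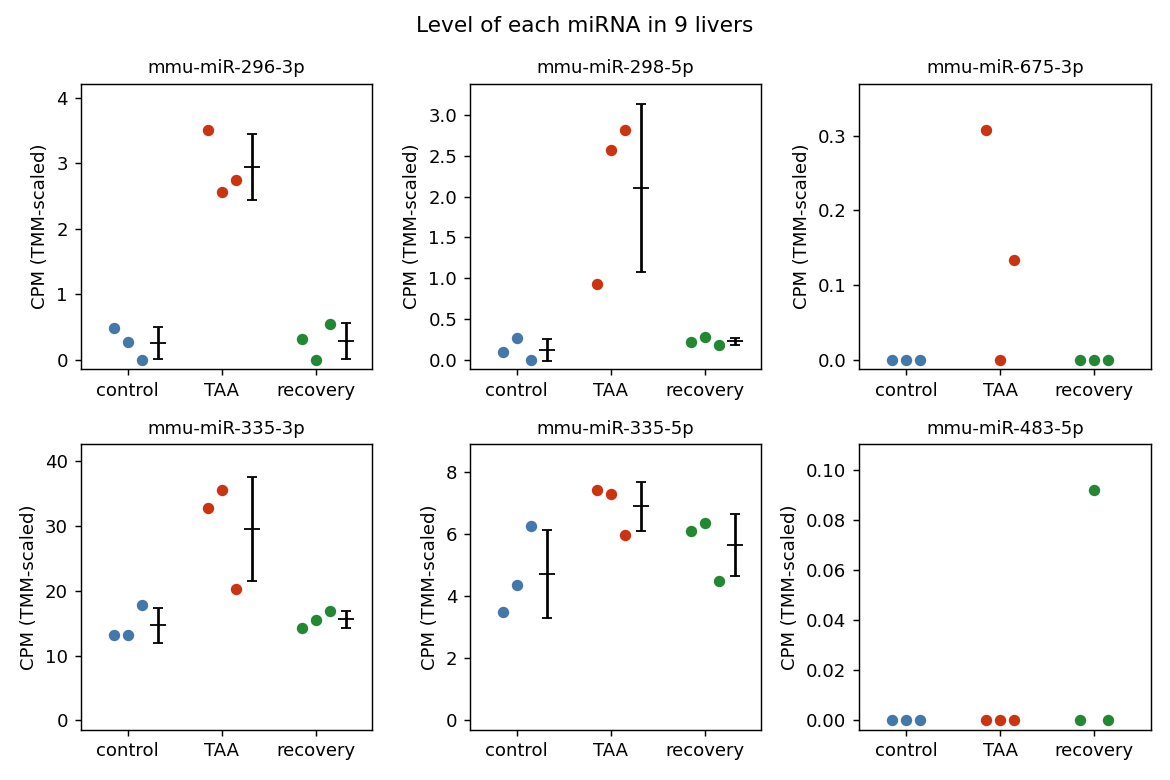
Level of each of the 6 miRNAs (y axis, CPM after TMM scaling, a separate linear axis from 0 for each panel) in the control, TAA and recovery livers. Points are single mice and black bars the mean ± SD of 3 mice, drawn for the 4 members with counts in every group. The TAA points stand above all others for mmu-miR-296-3p, mmu-miR-298-5p and mmu-miR-335-3p, and the recovery points lie near the control points.

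TAA vs control, the comparison of fibrotic with saline liver, was tested with edgeR's quasi-likelihood test. DEMs (differentially expressed miRNAs) were those with FDR under 0.05 whose level differed 2-fold or more. Of 420 miRNAs tested 41.7% were DEMs: 25% were raised in the TAA group and 16.7% lowered. Of the 6 members 4 passed the filter on low counts and 2 of these were DEMs, both raised: mmu-miR-296-3p and mmu-miR-298-5p, the pair of the Gnas locus. Each of these passed the filter through the TAA libraries alone, so this count carries no weight as a share of the members. The arms of miR-335, from the Mest intron, had smaller fold changes, and neither was a DEM.

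mmu-miR-296-3p had 5, 2 and 0 counts in control replicates 1 to 3 and 57, 38 and 41 counts in TAA replicates 1 to 3. As CPM these were 0.486, 0.264 and 0 in the control livers and 3.52, 2.56 and 2.75 in the TAA livers. All TAA livers were therefore above all control livers, while 66.7% of all tested miRNAs had no overlap between these groups. Entry into the test through the TAA libraries alone favoured such a separation and a high rank. The log2 fold change was 3.30 (SE 0.60, FDR 0.00266), the 27th highest of the 420. Since the control counts were few, the ratio of the summed counts (136 against 7) was also taken on the TMM scale, and it was 10.7, with a 95% interval for counting error alone of 5.07 to 27.2.

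mmu-miR-298-5p, cut from the neighbouring hairpin, had 1, 2 and 0 counts in the control livers and 15, 38 and 42 counts in the TAA livers. In the TAA group this came to 0.925, 2.56 and 2.82 CPM. The groups did not overlap, as for 66.7% of all tested miRNAs, and the filter favoured this here too. TAA replicate 1 was well below the other TAA livers, whereas for mmu-miR-296-3p the same library was the highest. The log2 fold change was 3.96 (SE 0.84, FDR 0.00539), and the ratio of summed counts (95 against 3) was 17.5, with a counting interval of 5.81 to 86.4. In the TAA livers the 2 miRNAs reached like levels (2.94 ± 0.503 and 2.10 ± 1.03 CPM).

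mmu-miR-335-3p was measured at 13.1, 13.2 and 17.8 CPM in the control livers and at 32.8, 35.5 and 20.3 CPM in the TAA livers. TAA replicate 3 was the lowest of its group but still above every control liver; 66.7% of all tested miRNAs had no overlap in this comparison. Its log2 fold change was 0.92 (SE 0.25, FDR 0.0178), a fold change of 1.90 that fell short of the minimum of 2. Without TAA replicate 3 the value was 1.15 (FDR 0.00489) and without control replicate 3 it was 1.06 (FDR 0.0320), which made it a DEM in either case. Without control replicate 1 (0.86, FDR 0.0608) or control replicate 2 (0.85, FDR 0.0669) it no longer passed the FDR threshold, so its call turned on single libraries in both directions. With all libraries kept it was a DEM when a mean of at least 10 CPM was required (1.13, FDR 0.00838). The same held in a fit of all 9 samples (1.01, FDR 0.00410).

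mmu-miR-335-5p, the other arm of the same hairpin, was measured at 3.50, 4.35 and 6.26 CPM in the control livers and at 7.40, 7.29 and 5.98 CPM in the TAA livers. The groups overlapped on this scale, and the log2 fold change of 0.48 (SE 0.26, 95% interval -0.14 to 1.09) did not pass the test (FDR 0.157). As TPM the groups did not overlap, with 2.77, 3.22 and 4.72 in the control livers and 10.6, 11.9 and 9.71 in the TAA livers. Under library totals both arms were raised DEMs, with log2 fold changes of 2.04 (FDR 0.000354) for the 3p arm and 1.59 (FDR 0.00113) for the 5p arm. On that scale all tested miRNAs were shifted, by a median of 1.12. Whether the arms of miR-335 were DEMs in fibrotic liver thus depended on the scale, while mmu-miR-296-3p and mmu-miR-298-5p were DEMs on either (4.39 and 5.03 under library totals).

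The members of the H19 and Igf2 loci were hardly detected. mmu-miR-675-3p, cut from H19, had 5, 0 and 2 counts in TAA replicates 1 to 3 and 0 counts in each of the other 6 livers. Taken over the groups, the TAA livers had 7 counts, which were set against a floor of 3 counts for the control group. The ratio was 1.29 on the TMM scale and 2.62 under library totals. It leaves out the counting error of the 7 counts, so it is not a lower limit. mmu-miR-675-3p was below the filter on low counts. Without that filter its FDR in TAA vs control was 0.217, so a rise was not shown. mmu-miR-483-5p, from the Igf2 intron, had a single count in all 9 livers, in recovery replicate 2. A change of this miRNA was not detectable at this depth.

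Recovery vs TAA, the comparison of liver after withdrawal with fibrotic liver, uses the same TAA livers, so a high or low TAA value enters it with the opposite sign. Of 440 miRNAs tested 24.8% were DEMs, and 14.5% were DEMs lowered in the recovery group. The 2 members of the Gnas locus were DEMs, both lowered, and again entered the test through the TAA livers alone. That entry favoured a low rank and a lack of overlap, which 53.4% of all tested miRNAs had between these groups. mmu-miR-296-3p had 3, 0 and 6 counts in recovery replicates 1 to 3, or 0.321, 0 and 0.550 CPM, and each recovery liver lay below each TAA liver. Its log2 fold change was -3.33 (SE 0.62, FDR 0.00505), the 8th lowest of 440. mmu-miR-298-5p had 2, 3 and 2 counts in the recovery livers, or 0.214, 0.276 and 0.183 CPM, also below each TAA liver. The log2 fold change was -3.20 (SE 0.62, FDR 0.00574), the 9th lowest.

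mmu-miR-335-3p was measured at 14.3, 15.5 and 16.9 CPM in the recovery livers, each below each TAA liver, while 53.4% of all tested miRNAs had no overlap between these groups. The log2 fold change was -0.94 (SE 0.25, FDR 0.0192), short of the minimum fold change. Without TAA replicate 3 it was -1.12 (FDR 0.00613), which made it a DEM. It lost the FDR threshold in 4 of the 6 fits that left out a library: the FDR was 0.0997, 0.0753 and 0.0550 without recovery replicates 1 to 3 and 0.0612 without TAA replicate 2. For mmu-miR-335-5p the recovery livers had 6.09, 6.34 and 4.49 CPM and overlapped the TAA livers (log2 fold change -0.31, 95% interval -0.87 to 0.25, FDR 0.344). Under library totals, which shifted all tested miRNAs by a median of -0.86, both arms were lowered DEMs, at -1.80 (FDR 0.00100) and -1.18 (FDR 0.00385). mmu-miR-675-3p had 0 counts in the 3 recovery livers. The 7 TAA counts against a floor of 3 counts for the recovery group gave ratios of 1.58 (TMM scale) and 2.92 (library totals). These too leave out the counting error of the 7 counts. Without a filter on low counts the FDR of mmu-miR-675-3p was 0.190, so a fall was not shown.

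**Figure D2:**
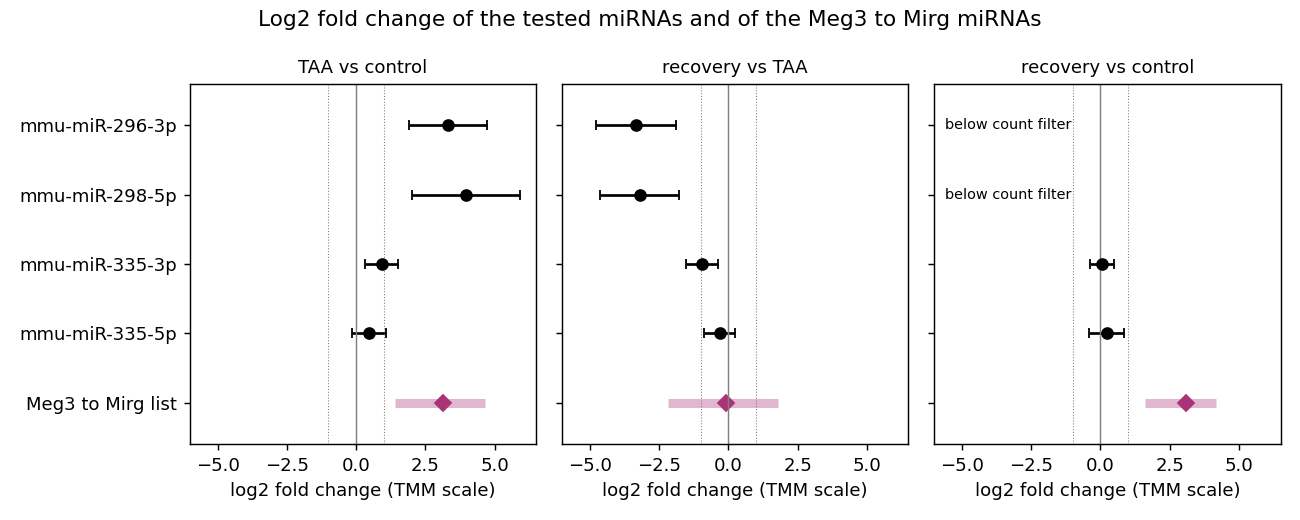
Log2 fold change on the TMM scale (x axis) of the members that passed the filter on low counts, which were 4 in the comparisons with TAA livers and 2 in recovery vs control. Black points and bars give the estimate and its 95% interval, and dotted lines mark a fold change of 2. The diamond and the pale bar give the median and the full range of the tested Meg3 to Mirg miRNAs. In recovery vs control the arms of miR-335 lie at 0.05 and 0.23, and the Meg3 to Mirg median lies at 3.10.

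Recovery vs control asked what was left 8 weeks after the last TAA course. The Meg3 to Mirg miRNAs, which were raised in TAA vs control, were still raised in it. This comparison shares the control livers with TAA vs control. Of 391 miRNAs tested 11.3% were DEMs: 10.5% were raised in the recovery group and 0.767% lowered. Of the 41 raised DEMs 37 were Meg3 to Mirg miRNAs. Few miRNAs outside that list were therefore still raised, and the lack of a lasting rise is not particular to the members. Of the 6 members 2 passed the filter and 0 of them were DEMs by edgeR; 0 had an unadjusted p below 0.05, and DESeq2 also called 0. mmu-miR-335-3p was at 15.6 ± 1.31 CPM in the recovery group against 14.7 ± 2.70 CPM in the control group. Its log2 fold change was 0.05 (SE 0.19, FDR 0.936), and the 95% interval of -0.38 to 0.48 places any lasting change between 0.768-fold and 1.40-fold. mmu-miR-335-5p was at 5.64 ± 1.0 against 4.70 ± 1.41 CPM (log2 fold change 0.23, SE 0.28, FDR 0.749), with an interval of 0.759-fold to 1.82-fold. For both arms recovery and control livers overlapped on the TMM scale and as TPM.

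mmu-miR-296-3p and mmu-miR-298-5p were below the filter in this comparison. Their summed counts were 9 and 7 in the recovery group and 7 and 3 in the control group. The ratio of recovery to control on the TMM scale was 1.05 for mmu-miR-296-3p, with a counting interval of 0.347 to 3.31. For mmu-miR-298-5p it was 1.90, with a counting interval of 0.434 to 11.4. The range for mmu-miR-298-5p is wide enough to hold both a fall and a large rise, so a lasting change of this miRNA could not be measured at this depth. Without a filter on low counts edgeR gave log2 fold changes of 0.05 (FDR 0.988) and 0.79 (FDR 0.802).

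The miRNAs between Meg3 and Mirg were listed by name, and 88 rows of the table belonged to the list. RefSeq gave a position for 85 of them, all inside the region, and 1 further row of the region was not in the list. Their summed level was 228.6 ± 83.8 CPM in the control group, 1976 ± 848 CPM in the TAA group and 2001 ± 481 CPM in the recovery group. They made up 0.0118% to 0.0234% of the counts in control livers and 0.121% to 0.221% in recovery livers. Of 40 tested between TAA and control livers, 39 were raised DEMs (median log2 fold change 3.15, against 0.11 over all tested miRNAs). In recovery vs TAA 1 was raised and 4 were lowered of 45 (median -0.07, against -0.12). In recovery vs control 37 of 39 were raised DEMs (median 3.10, range 1.62 to 4.19, against -0.03). mmu-miR-411-5p, a member of this list, was at 66.9 ± 25.9 CPM in control, 530.8 ± 229 CPM in TAA and 605.0 ± 147 CPM in recovery livers. The upper ends of the intervals of mmu-miR-335-3p (0.48) and mmu-miR-335-5p (0.87) in recovery vs control lay below 1.62. That is the lowest point estimate of the 39 listed miRNAs tested there, given without its interval, so this describes the values and is not a test. A listed miRNA could pass the filter on low counts only through the livers where it was high, so these counts and ranges are partly set by the filter.

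The difference between each member and the Meg3 to Mirg miRNAs was then tested directly, with the summed counts of that list in place of the library size. This replaces the scaling over all miRNAs by that of the list. The summed level of the list ran from 149 to 316 CPM in the control livers, and this variation enters every miRNA alike. These fits pool the variance over miRNAs as if they were independent, so their FDRs do not measure the spread over 3 mice. Since the list was known to be raised against control, most miRNAs must be lower than it in the comparisons with control livers. In recovery vs control 89.5% of all tested miRNAs were lower than the list by at least 2-fold at an FDR below 0.05. Of the members, mmu-miR-335-3p (log2 difference -3.13, SE 0.48, FDR 1.56e-10) and mmu-miR-335-5p (-2.87, SE 0.50, FDR 1.54e-08) were among them, as were most miRNAs. Without a filter on low counts, a fit added after the data were seen in which 55.9% of rows were lower, mmu-miR-296-3p was also lower (-3.12, SE 1.15, FDR 0.0142). That call was lost without control replicate 1 (-1.71, FDR 0.461) or recovery replicate 2 (-2.56, FDR 0.0858). mmu-miR-298-5p was not distinguished from the list (-2.10, 95% interval -5.04 to 0.85, FDR 0.235).

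In TAA vs control 77.9% of miRNAs were lower than the list, and so were mmu-miR-335-3p (-1.94, FDR 0.00460) and mmu-miR-335-5p (-2.37, FDR 0.00117). Without TAA replicate 3 only 1 of these calls was left. The members of the Gnas locus were not: the differences were 0.51 (95% interval -1.22 to 2.25, FDR 0.613) for mmu-miR-296-3p and 0.98 (-1.14 to 3.09, FDR 0.413) for mmu-miR-298-5p. These intervals are wide and do not show that the rises were equal.

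In recovery vs TAA, a test added after the data were seen, 2.95% of 440 miRNAs were lower than the list. They included mmu-miR-296-3p (-3.67, SE 0.86, FDR 0.0394) and mmu-miR-298-5p (-3.14, SE 0.67, FDR 0.0205). Both entered this test through the TAA livers, where they were high, so a difference in this direction was favoured by the filter. mmu-miR-335-3p (-1.20, 95% interval -2.40 to 0.01, FDR 0.230) and mmu-miR-335-5p (-0.50, FDR 0.641) did not pass. Without any 1 of the recovery livers both calls were lost, and with the median of ratios over the list in place of its sum 1 of the 2 was left. The FDR was then 0.109, 0.109 and 0.107 for mmu-miR-296-3p, and 0.109, 0.109 and 0.143 for mmu-miR-298-5p, without recovery replicates 1 to 3. Without a filter on low counts, where 4.46% of rows were lower than the list, both were lower too (FDR 0.000386 and 0.0119). The differences stayed between -4.29 and -3.11 and between -3.35 and -2.85 in the fits without a recovery liver.

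**Figure D3:**
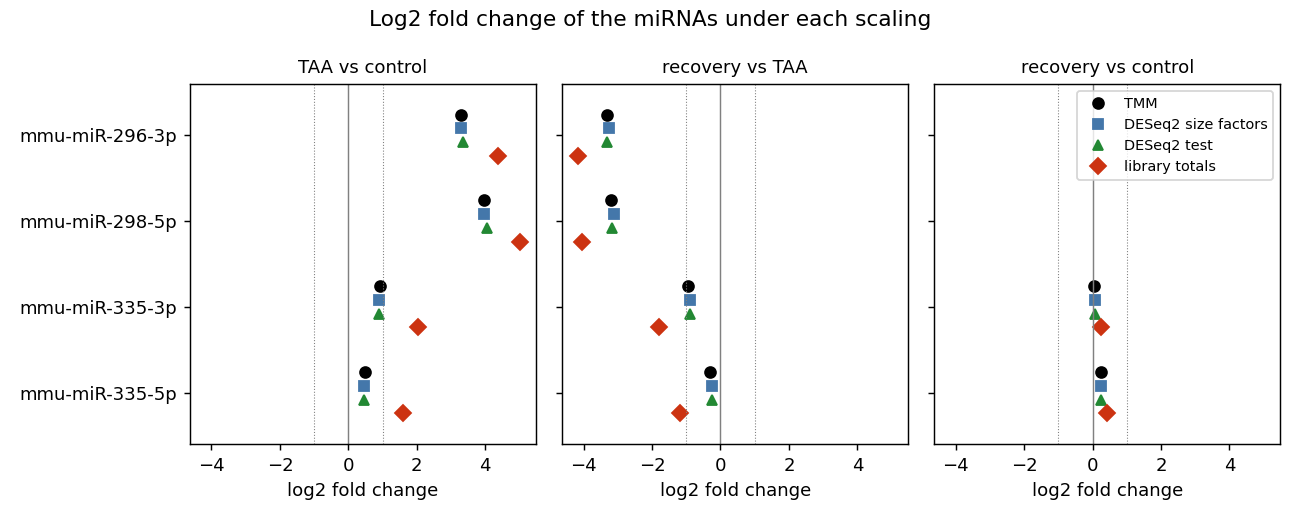
Log2 fold change (x axis) of the members that passed the filter on low counts in each comparison under TMM, under DESeq2 size factors in edgeR, in the DESeq2 test and under library totals. Dotted lines mark a fold change of 2. Library totals move each value away from 0 in the comparisons with TAA livers, to 2.04 and 1.59 for the arms of miR-335 in TAA vs control, and the recovery vs control values stay at 0.42 or below.

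A further imprinted group, the repeat cluster in an intron of Sfmbt2 (miR-297, miR-466, miR-467 and miR-669), was set beside the members. It was listed by name, without a check of positions, and held 54 rows. Some of its members are near-identical and can share reads. In recovery vs control 0 of the 6 tested were DEMs by edgeR (median -0.42). Between TAA and control livers 1 of 8 was a DEM, lowered (median 0.38), while 16.7% of all tested miRNAs were lowered DEMs. Between recovery and TAA livers 2 of 10 were, both lowered (median -0.79), while 14.5% of all tested miRNAs were. The 2 were mmu-miR-467a-3p and mmu-miR-467d-3p, with the same log2 fold change (-2.90) and FDR (0.0110). They therefore cannot be counted as 2 separate results. mmu-miR-467a-5p, whose counts were identical to those of mmu-miR-467b-5p, was at 18.2 ± 2.43 CPM in control, 25.2 ± 3.80 CPM in TAA and 13.9 ± 7.27 CPM in recovery livers.

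The 2 arms of miR-335 come from 1 hairpin, so their ratio is free of the scaling. The 3p arm took 78.9%, 75.2% and 74.0% of the counts of both arms in control replicates 1 to 3, and 81.6%, 83.0% and 77.3% in TAA replicates 1 to 3. In recovery replicates 1 to 3 it took 70.2%, 71.0% and 79.1%. The group values were 76.1% ± 2.57, 80.6% ± 2.96 and 73.4% ± 4.91 (SD, n = 3), and each pair of groups overlapped. The 95% Wilson intervals of single libraries were as wide as 67.2% to 81.8% in control replicate 2 and as narrow as 79.8% to 85.7% in TAA replicate 2. The 3p arm was thus the main arm in every liver. The shift between groups was not tested.

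**Figure D4:**
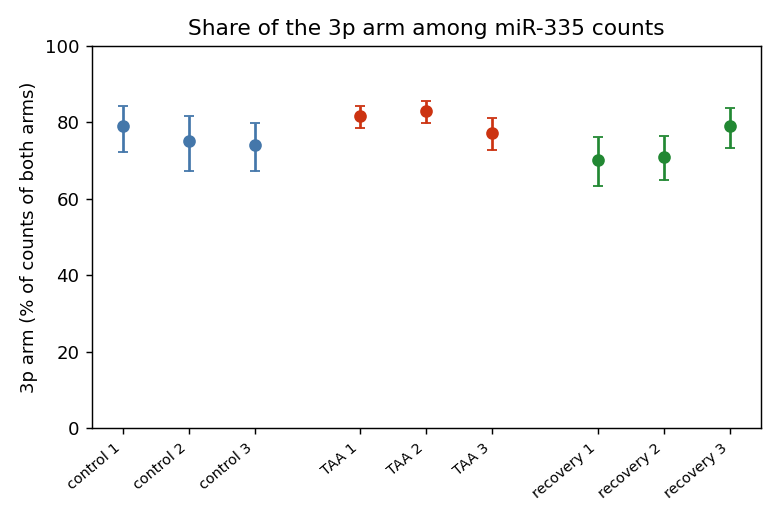
Share of the 3p arm among the counts of both miR-335 arms (y axis, percent, from 0 to 100) in each of the 9 livers, with its 95% Wilson interval for counting error. The shares lie between 70.2% and 83.0%, and the groups overlap.

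For the called members, mmu-miR-296-3p and mmu-miR-298-5p, the most similar of 225 other miRNAs with a mean of at least 10 CPM were found from log2(CPM + 1) centred on the mean of the 9 livers. The measure was the mean absolute difference over the 9 livers, which compresses differences at low levels. For mmu-miR-296-3p these were mmu-miR-5099 (0.223) and mmu-miR-214-5p (0.240), against a median of 0.820 over the 225. For mmu-miR-298-5p they were mmu-miR-5099 (0.255) and mmu-miR-132-5p (0.256), against a median of 0.691. Their means in the control, TAA and recovery groups were 11.6, 36.8 and 11.7 CPM for mmu-miR-5099, 5.30, 23.0 and 7.95 CPM for mmu-miR-214-5p, and 10.2, 23.5 and 12.0 CPM for mmu-miR-132-5p. Each was highest in the TAA group, which follows from their choice by likeness to members that were high there. The difference between mmu-miR-296-3p and mmu-miR-298-5p themselves was 0.324.

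Markers of cell types that a liver can hold moved over the same groups, and their part in the results above was not tested. All 5 biliary epithelial markers (the miR-200 family) were raised DEMs in TAA vs control and lowered DEMs in recovery vs TAA. Their summed level was 582 to 764 CPM in control, 3332 to 5534 in TAA and 1239.8 to 1415 in recovery livers. Of 5 markers of stellate and smooth muscle cells 3 were raised and then lowered (mmu-miR-199a-5p, mmu-miR-199a-3p and mmu-miR-214-3p), with sums of 25480 to 31109, 18032 to 39505 and 21869 to 35800.0 CPM. Of 4 leukocyte markers 1, mmu-miR-223-3p, was raised and then lowered, with sums of 187 to 208, 262 to 309.9 and 141 to 217 CPM. The 4 hepatocyte markers were lowered DEMs in TAA vs control, with sums of 362034 to 377095, 107503 to 113990.3 and 273266 to 401924 CPM. The 2 endothelial markers were DEMs in no comparison (sums 8477 to 8951, 5699.9 to 6895 and 8347 to 9122 CPM). Of 3 red cell markers, mmu-miR-451a was lowered in the TAA and in the recovery group relative to control (sums 789 to 1339, 206 to 461 and 329 to 622 CPM). In recovery vs control 1 of the 5 biliary markers was still a raised DEM.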

How the data were processed

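Small RNA libraries were prepared with a NEBNext ligation kit and sequenced as single-end reads. The authors mapped reads to mm10 and to miRBase mature miRNAs with Bowtie (version 1.3.0 in the submitters' processing notes) and deposited read counts, not normalized, for 1106 known and 34 predicted miRNAs. The deposited TPM values equalled counts per 1000000 of the column total (largest difference 5e-05). How reads with several matches, and the strand, were handled is not given in the sources used here. The authors tested with DESeq2.

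Groups came from sample titles. Counts were tested per pair of groups, on 6 libraries each, with edgeR 4.0.16 (R 4.3.3): filterByExpr (minimum count 10), TMM, glmQLFit and glmQLFTest, no covariates, Benjamini-Hochberg FDR over all tested rows. The SE is the log2 fold change over the square root of F. DESeq2 1.42.0, other scalings and filters, a replicate block and left-out libraries were alternatives. The script was tested on simulated data. No 2 libraries of the same group agreed within sampling noise. Each sample was taken as a separate mouse. The rule named all 6 members, and for each DEM among them the 2 most similar miRNAs, with at most 2 abundant rows as examples of each comparison list. The members and lists were chosen with earlier results of these data known.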

Additional observations from a re-analysis of the deposited data

How the results depend on the processing

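The members called numbered 2 for TAA against control, 2 for recovery against TAA and 0 for recovery against control. These counts, in that order, became 4, 4 and 0 under library totals. That scale shifted all tested miRNAs, by a median of 1.12 for TAA against control and -0.86 for recovery against TAA. The share of all miRNAs called on it is not given here, so the added calls are not a result about the members. With a mean of at least 10 CPM required the counts called became 1, 1 and 0, since mmu-miR-335-3p alone passed that filter. It was a DEM there, unlike in the main fits, at 1.13 (FDR 0.00838) for TAA against control and -1.13 (FDR 0.00841) for recovery against TAA. DESeq2, DESeq2 size factors, no filter, all 9 samples in 1 fit and the FDR alone kept the counts called at 2 to 3, 2 to 3 and 0. Leaving out each library gave 2 to 3, 2 to 3 and 0, and in recovery vs control the log2 fold change of mmu-miR-335-3p then ran from -0.04 to 0.19, with values of -0.03 without recovery replicate 3, -0.03 without control replicate 1 and -0.044 without control replicate 2. Members lower than the Meg3 to Mirg sum numbered 2 in each of the 3 comparisons, but they were not the same members. Against control they were the arms of miR-335, where 89.5% (recovery) and 77.9% (TAA) of all tested miRNAs were lower. In recovery vs TAA, where 2.95% were lower, they were mmu-miR-296-3p and mmu-miR-298-5p. Leaving out each library gave 1 to 2 in TAA vs control, 2 to 2 in recovery vs control and 0 to 2 in recovery vs TAA; the cause was not tested. In recovery vs TAA, added after the data were seen, the median of ratios over the list gave 1. With no filter, also added later, the counts were 3 in recovery vs control and 2 in either of the others. With the replicate number as a block the counts called were 2, 2 and 0, and those lower than the Meg3 to Mirg sum 2, 2 and 2, so the replicate block changed no call count. Replicate numbers do not mark the same animal: deviations of same-numbered samples correlated at -0.24 to 0.24, and 3 of 9 samples correlated best with their own number. With 7 and 1 counts over the 9 libraries, mmu-miR-675-3p and mmu-miR-483-5p passed no filter on low counts, and without one neither was called.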
